A study of Mus musculus with 16 samples.

Results

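The immunity-related GTPases (IRGs) were followed as 6 genes, Igtp, Irgm1, Irgm2, Iigp1, Tgtp1 and Tgtp2, picked by symbol from the 56268 genes of an RNA sequencing table of mouse colonic epithelial cells. All 6 were found in the table. Their choice followed earlier results of these libraries in which dextran sulfate sodium (DSS), a sulfated sugar polymer used to cause colitis by damaging the gut lining, raised Iigp1, Igtp, Irgm1 and Tgtp1. The DSS changes of the members are therefore given as a description, with no p-value, and nothing is read from how many met a threshold. The cKO_DSS libraries came from mice with floxed Rictor and the Villin-Cre transgene, which drives Cre recombinase in the intestinal epithelium, after 3% DSS in the drinking water. The WT_DSS libraries came from Villin-Cre mice given the same DSS, and the cKO and WT libraries from mice of the same genotypes on normal water. Controls labelled WT thus also carried Villin-Cre, and no group lacked it. Rictor is a subunit found in mTOR complex 2 and not in mTOR complex 1. There were 4 libraries in each of the 4 groups. A library held between 13911823 and 16414914 reads. Strain, age and the days of DSS are not given in the labels, nor whether each library is 1 animal. The p-values therefore refer to the variation among these libraries and to nothing wider.

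IRG proteins are GTPases that interferons, above all interferon gamma, induce in mouse cells. Effector IRGs, among them Iigp1 (also called Irga6) and the Tgtp proteins (Irgb6), coat and break the vacuoles in which intracellular parasites such as Toxoplasma live. Regulatory IRGs, Irgm1, Irgm2 and Igtp (also called Irgm3), sit on host membranes and hold the effectors off them. In mouse intestine the family is known as part of the epithelial defence that interferons switch on.

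Promoter windows of 5 of the 6 members were found by symbol in the set of RefSeq promoters used here (build GRCm38.p6). A window ran from 250 bases before to 50 bases after the start site. For Iigp1 no window was found in that set, so its promoter was not searched and is not shown. The 5 are shown because Igtp, Irgm1, Irgm2 and Tgtp1 moved together and because interferon-activated factors are known to bind such letters, with Tgtp2 for comparison with Tgtp1. Each line is 60 bases, 5′ to 3′ on the strand of the gene, and capitals mark matches to TTCNNNGAA, the pattern of the gamma-activated site (GAS), and to GAAANNGAAA, the core of the interferon-stimulated response element (ISRE). Both strands were searched, and the TTCNNNGAA pattern reads the same on either strand.
Igtp, chr11:58199486-58199545, plus strand: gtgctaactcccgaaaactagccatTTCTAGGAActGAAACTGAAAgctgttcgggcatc
Irgm2, chr11:58214877-58214936, plus strand: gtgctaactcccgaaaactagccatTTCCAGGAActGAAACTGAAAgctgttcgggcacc
Irgm1, chr11:48871421-48871480, minus strand: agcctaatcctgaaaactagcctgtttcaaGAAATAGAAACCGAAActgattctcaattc
Tgtp1, chr11:48992300-48992359, minus strand: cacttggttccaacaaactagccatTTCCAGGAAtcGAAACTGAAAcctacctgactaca
Tgtp2, chr11:49064259-49064318, minus strand: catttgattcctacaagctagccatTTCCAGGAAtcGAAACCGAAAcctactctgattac

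In Igtp, Irgm2, Tgtp1 and Tgtp2 the GAS match was followed after 2 bases by the ISRE core match. Irgm1 held 2 overlapping ISRE core matches, at positions -30 to -15 from its start, and no TTCNNNGAA in this window. Igtp and Irgm2 were identical at 58 of these 60 bases, and Tgtp1 and Tgtp2 at 47 of 60. Among 32851 RefSeq promoter windows of the same length, 3.44% held GAAANNGAAA, 8.3% held TTCNNNGAA and 0.131% held both within 10 bases of each other. Gm12250, which RefSeq also calls Irgb10, and Gm12185, 2 further IRG genes, held both matches too. Another relative, 9930111J21Rik1, held an ISRE core match after its start, at positions 26 to 35, and no TTCNNNGAA. No match was recorded for the other IRG relatives, and how many of them had a window is not given here. A match of letters is a description of the sequence and does not show binding.

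**Figure D1:**
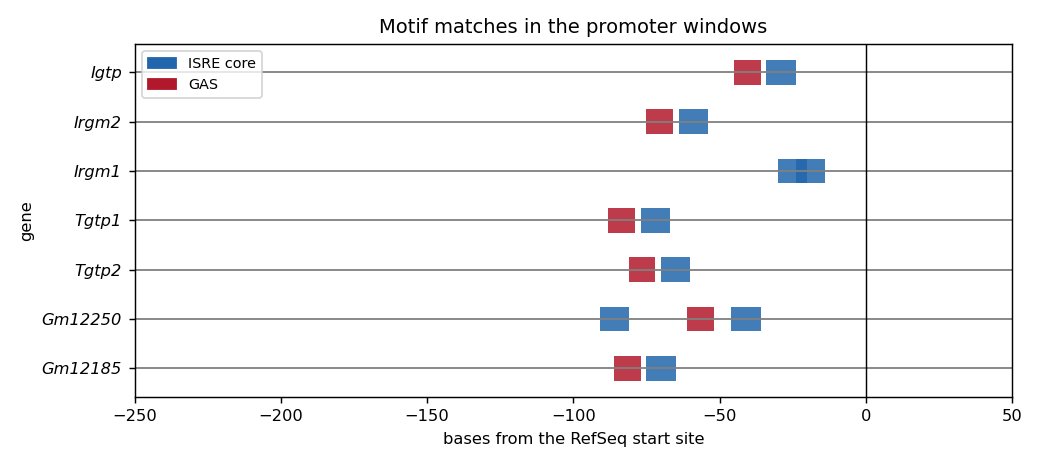
Matches to the GAS (red) and ISRE core (blue) patterns in the promoter windows of 5 members and of Gm12250 and Gm12185, by distance in bases from the RefSeq start site at 0. In 4 of the 5 members a red box ends 2 bases before a blue one; Irgm1 has only blue boxes, which overlap each other.

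Some facts about the libraries bear on all values below. The epithelial markers Epcam, Krt8, Krt18, Krt19, Krt20, Cdh1, Vil1 and Cldn7 summed to 6298 to 9382 FPKM (fragments scaled by gene length and library total), against 12.8 to 35.8 FPKM for 12 T and NK cell markers and 3.86 to 11.2 FPKM for 8 macrophage and monocyte markers. By group the epithelial sum was 6982 to 9382 FPKM in cKO_DSS, 6298 to 7255 in WT_DSS, 6628 to 7054 in cKO and 6935 to 8413 in WT. The lean of a library towards GC-rich genes, as Spearman's rho across genes, was -0.375 to 0.399 in cKO_DSS, -0.483 to 0.0178 in WT_DSS, -0.226 to 0.0052 in cKO and 0.190 to 0.498 in WT, so it differed between the groups. Within cKO_DSS, libraries 3 and 4 (0.399 and 0.388) stood apart from 1 and 2 (-0.255 and -0.375). The summed Y-linked genes Ddx3y, Eif2s3y, Kdm5d and Uty were at 27.7 to 45.5 FPKM in DSS libraries and 0 to 18.2 FPKM in water libraries, with no read in WT 3, cKO 3 and cKO 4, so the Y-linked level moved with treatment. The X-linked Xist, which is transcribed in female cells, was at 0 to 0.0268 FPKM in 7 DSS libraries, 20.5 FPKM in WT_DSS 2 and 33.2 to 105 FPKM in the 8 water libraries. WT_DSS 2 thus stood apart from the other DSS libraries, and the levels of these sex-linked genes and DSS cannot be fully told apart. Rictor was at 2.51 ± 0.46 FPKM in cKO_DSS, 3.63 ± 0.57 in WT_DSS, 2.47 ± 0.24 in cKO and 2.80 ± 0.44 in WT (SD, n = 4 each), and was not called between genotypes by limma (log2 fold change -0.40, adjusted p = 0.0761 after DSS and -0.13, adjusted p = 0.582 on water). These values cover the whole gene and are an incomplete check of a deletion of some exons. A gene was called where limma gave an adjusted p under 0.05. Log2 fold changes were computed after adding 1 to each FPKM, so those of weakly expressed genes come out too small.

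The regulators were the most abundant members on water, and their mean levels were 1.93 to 5.21 times higher after DSS. The effectors Iigp1 and Tgtp1 were low on water, and their mean levels were 7.88 to 25.6 times higher after DSS. For each of these 5 genes the mean in cKO was above that in WT on water and the mean in cKO_DSS was below that in WT_DSS after DSS. No member was called between genotypes or for the difference of the DSS responses. Tgtp2 held almost no reads.

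Igtp, the regulator on chromosome 11 from 58199556 to 58207591 (mm10), was at 53.3, 57.2, 56.2 and 46.4 FPKM in cKO_DSS libraries 1 to 4, 71.6, 65.1, 76.0 and 78.3 FPKM in WT_DSS, 15.3, 18.1, 17.8 and 16.2 FPKM in cKO and 18.7, 14.7, 12.3 and 10.1 FPKM in WT. Every DSS library lay above every water library, and every cKO_DSS library lay below every WT_DSS library. The ratio of mean FPKM was 3.16 for cKO_DSS over cKO and 5.21 for WT_DSS over WT.

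Irgm2, a regulator whose deposited span, 58199618 to 58222782, overlaps that of Igtp, was at 41.3, 56.9, 40.7 and 36.7 FPKM in cKO_DSS, 60.2, 55.2, 51.9 and 62.3 FPKM in WT_DSS, 14.9, 19.5, 24.5 and 22.9 FPKM in cKO and 16.4, 15.4, 12.1 and 9.49 FPKM in WT. The DSS libraries were again all above the water libraries, and the genotypes overlapped both after DSS, through cKO_DSS 2, and on water, through cKO 1. Mean FPKM was 2.14 times higher in cKO_DSS than in cKO and 4.3 times higher in WT_DSS than in WT.

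Irgm1, the regulator known in mice for its role in macrophage defence against mycobacteria, was at 15, 21.4, 16.6 and 14.9 FPKM in cKO_DSS, 22.4, 21.1, 20.6 and 27.1 FPKM in WT_DSS, 6.54, 7.56, 12.2 and 8.95 FPKM in cKO and 7.17, 6.68, 5.88 and 5.19 FPKM in WT. Its DSS and water values did not overlap, cKO 3 was the highest water library, and the genotypes overlapped after DSS through cKO_DSS 2. The ratios of mean FPKM, 1.93 in cKO and 3.66 in WT, were the smallest among the 5 members with reads.

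Iigp1, the effector on chromosome 18 from 60376027 to 60392634, was at 27.8, 39.5, 27.7 and 22.0 FPKM in cKO_DSS, 46.1, 42.2, 35.3 and 44.8 FPKM in WT_DSS, 1.14, 2.71, 3.52 and 3.85 FPKM in cKO and 2.22, 2.25, 1.83 and 0.621 FPKM in WT. The lowest DSS library was thus several times the highest water library, and the genotypes overlapped at both treatments. Mean FPKM was 10.4 times higher in cKO_DSS than in cKO and 24.3 times higher in WT_DSS than in WT.

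Tgtp1, the other effector with reads, was at 4.42, 7.16, 4.85 and 3.25 FPKM in cKO_DSS, 10.8, 7.62, 5.72 and 8.80 FPKM in WT_DSS, 0.163, 0.470, 1.17 and 0.696 FPKM in cKO and 0.125, 0.512, 0.334 and 0.313 FPKM in WT. The DSS and water values did not overlap, while the genotypes overlapped at both treatments. The water values rest on 6 to 51 reads per library and the DSS values on 165 to 480. The ratio of mean FPKM was 7.88 in cKO and 25.6 in WT. Apart from cKO 3, only DSS libraries reached the 1 FPKM of the filter on low values.

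Tgtp2, a neighbour of Tgtp1 with nearly the same transcript, held 12 reads in all 16 libraries and none in 11 of them. A count of 0 allows up to 0.0598 to 0.0751 FPKM per library (3 reads, for counting error only). It failed the filter of 1 FPKM in at least 4 libraries and entered no test. Of the 100-base stretches of the longest Tgtp2 transcript in GENCODE M21, 80.4% also occurred in the Tgtp1 transcript and 19.6% occurred in no other gene. For Tgtp1 the unique share was 16.7%. How reads that fit both genes were counted is not given in the sources used here, so the Tgtp1 level may miss shared reads and the split between the 2 genes is uncertain. Iigp1 and Irgm1 were unique along the whole transcript, Irgm2 at 97.5% and Igtp at 94.3%. Igtp and Irgm2 also share 162 exonic bases on the same strand, and Tgtp1 shares 223 with Gm12185.

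**Figure D2:**
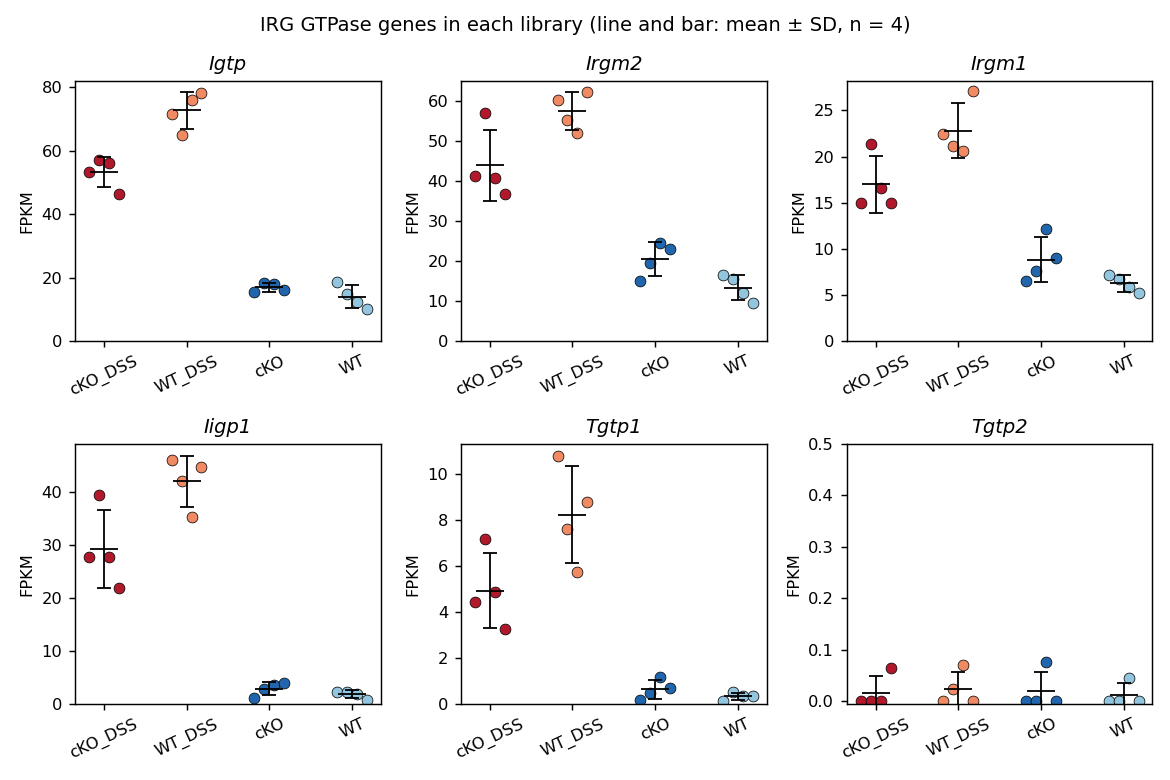
FPKM (linear axes) of the 6 members in each library, with mean and SD of the 4 libraries per group as black lines. The DSS groups lie above the water groups for 5 genes, the cKO_DSS points of Igtp lie below all WT_DSS points, and Tgtp2 stays under 0.1 FPKM.

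By level, the order in cKO_DSS was Igtp (53.3 ± 4.86 FPKM, SD, n = 4), Irgm2 (43.9 ± 8.91), Iigp1 (29.2 ± 7.38), Irgm1 (17.0 ± 3.04) and Tgtp1 (4.92 ± 1.64). In WT_DSS it was the same, with 72.8 ± 5.82, 57.4 ± 4.72, 42.1 ± 4.79, 22.8 ± 2.96 and 8.24 ± 2.13 FPKM. On water Irgm2 (20.5 ± 4.26) and Igtp (16.9 ± 1.33) were within their spread of each other in cKO. In WT, Igtp (14.0 ± 3.70) and Irgm2 (13.3 ± 3.15) were also within it. Irgm1 followed at 8.80 ± 2.45 FPKM in cKO and 6.23 ± 0.88 in WT, and Iigp1 stood below it at 2.81 ± 1.21 in cKO and 1.73 ± 0.76 in WT. Iigp1 was thus the member that changed place, from below Irgm1 on water to above it after DSS. The ratio of summed effector FPKM (Iigp1, Tgtp1 and Tgtp2) to summed regulator FPKM (Igtp, Irgm1 and Irgm2) was 0.258 to 0.345 in cKO_DSS, 0.277 to 0.369 in WT_DSS, 0.0353 to 0.0947 in cKO and 0.0378 to 0.0752 in WT. The DSS libraries were all higher, and the genotypes overlapped.

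On the log2(FPKM + 1) scale DSS changed Iigp1 by +3.03 ± 0.26 SE in cKO and +4.03 ± 0.26 SE in WT, and Tgtp1 by +1.86 ± 0.22 SE in cKO and +2.78 ± 0.22 SE in WT. Igtp changed by +1.60 ± 0.14 SE in cKO and +2.33 ± 0.14 SE in WT, Irgm2 by +1.07 ± 0.18 SE in cKO and +2.05 ± 0.18 SE in WT, and Irgm1 by +0.89 ± 0.16 SE in cKO and +1.72 ± 0.16 SE in WT. The median over these 5 was +1.60 in cKO and +2.33 in WT, against -0.01 over all 13255 genes in both. The call threshold was met by 14.7% of genes in cKO and 28.5% in WT, all 5 members included, and all 5 had every DSS library above every water library, as 10.1% of genes did in cKO and 15.5% in WT. Because these changes led to the choice of genes, nothing is read from those counts. With a pseudocount of 0.1 in place of 1, Tgtp1 came to +2.95 in cKO and +4.36 in WT, over 1.5 times the values above. With the Y-linked level as a covariate the median change was +1.45 in cKO and +2.20 in WT, while the number of all genes called dropped to 94 in cKO, against 1950 without it, and 193 in WT, against 3778. Without the 3 water libraries that held no Y-linked read it was 567 in cKO and 1779 in WT. With the GC correction the median change of the members was +1.63 in cKO and +2.34 in WT. The number of all genes called was then 2533 in cKO and 2600 in WT, so the unequal shares of the 2 genotypes depended on this setting. Without WT_DSS replicate 2, Iigp1 changed by +4.02 in WT and Igtp by +2.38. Across DSS and water the libraries also differed in markers of other cells, as given below, and in bulk RNA fewer cells of a type cannot be told apart from less RNA per cell.

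The DSS response in cKO minus that in WT was negative for each of the 5 members, and none was called by limma, in a comparison where 0.151% of genes were. It was -0.98 ± 0.25 SE for Irgm2 (adjusted p = 0.0771), -0.73 ± 0.20 SE for Igtp (adjusted p = 0.0907) and -0.83 ± 0.23 SE for Irgm1 (adjusted p = 0.0931). It was -0.92 ± 0.31 SE for Tgtp1 (adjusted p = 0.127) and -1.0 ± 0.37 SE for Iigp1 (adjusted p = 0.145). All 5 had an unadjusted p under 0.05, as did 3074 of the 13255 genes. The median was -0.92, against -0.01 over all genes. Since the members were chosen on their DSS rise, which was larger in WT, the sign of this difference is not independent of the choice. Without cKO_DSS replicate 2, the library with the highest IRG levels of its group, 4 of the 5 were called, and 1240 genes were called over the whole table, against 20 with all libraries. Without the 3 water libraries that held no Y-linked read, an alternative chosen after seeing the data, the 5 differences were between -0.72 and -0.55, with adjusted p between 0.412 and 0.515.

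**Figure D3:**
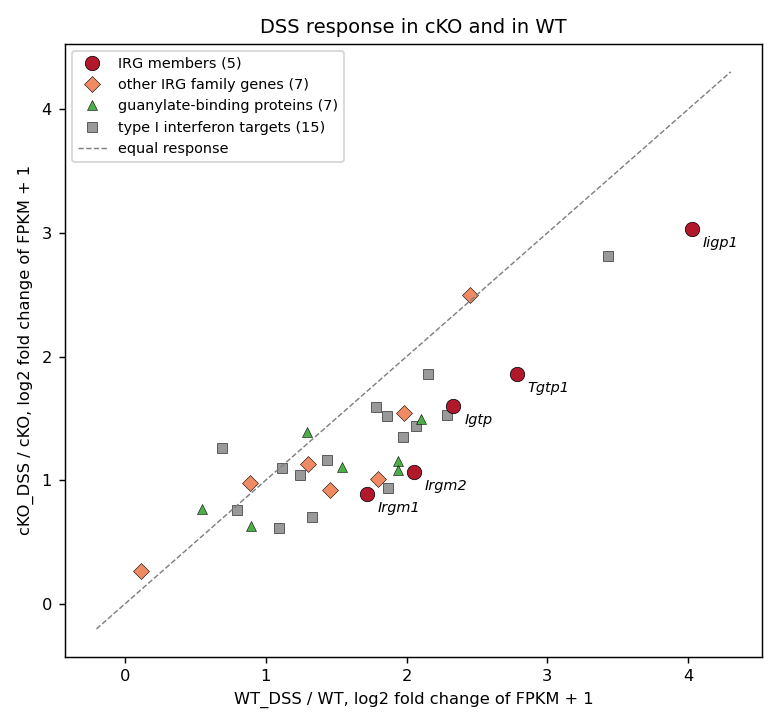
DSS response in cKO (vertical axis) against that in WT (horizontal axis), as log2 fold change of FPKM + 1, for the 5 members with reads and 3 lists of related genes; the dashed line marks equal responses. All 5 members lie below the line; Iigp1 stands at +4.03 in WT and +3.03 in cKO.

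After DSS, the fitted difference of each member between cKO_DSS and WT_DSS was below 0, and none was called by limma, where 3.7% of genes were. That share rests on 491 genes, which became 78 without WT_DSS replicate 2, 107 without cKO_DSS replicate 3, 150 without WT_DSS replicate 1, 164 without cKO_DSS replicate 4, 248 without WT_DSS replicate 4 and 886 without cKO_DSS replicate 1. These libraries are among those on which the members were chosen. Tgtp1 differed by -0.65 ± 0.22 SE (adjusted p = 0.106), Iigp1 by -0.54 ± 0.26 SE (adjusted p = 0.263), Igtp by -0.44 ± 0.14 SE (adjusted p = 0.0886), Irgm1 by -0.41 ± 0.16 SE (adjusted p = 0.16) and Irgm2 by -0.40 ± 0.18 SE (adjusted p = 0.222). The median was -0.44, against -0.01 over all genes. Igtp was the only one whose genotypes did not overlap, and 4.88% of genes had every cKO_DSS library below every WT_DSS library. Igtp was called with limma voom on the recovered reads (adjusted p = 0.0474), without WT replicate 1 (0.0411) and without WT replicate 4 (0.0423), and Tgtp1 was called without cKO_DSS replicate 2 (0.0467). Across all alternatives the adjusted p of Igtp ran from 0.0411 to 0.393 and that of Tgtp1 from 0.0467 to 0.526.

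On water the fitted difference of each member between cKO and WT was above 0, and none was called by limma, where 0.0905% of genes were. Irgm2 differed by +0.59 ± 0.18 SE (adjusted p = 0.148), Iigp1 by +0.46 ± 0.26 SE (adjusted p = 0.345), Irgm1 by +0.41 ± 0.16 SE (adjusted p = 0.209), Igtp by +0.29 ± 0.14 SE (adjusted p = 0.29) and Tgtp1 by +0.27 ± 0.22 SE (adjusted p = 0.507). The median was +0.41, against +0.01 over all genes. The differences moved with the libraries that held no Y-linked read, which were 2 of 4 in cKO and 1 of 4 in WT. Without those 3 libraries they were +0.33 for Irgm2, +0.13 for Iigp1, +0.14 for Irgm1, +0.23 for Igtp and 0.00066 for Tgtp1. The water libraries that remained held both Xist and Y-linked reads. Leaving the 3 out therefore did not separate the sexes, and the part of sex in the difference was not tested.

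**Figure D4:**
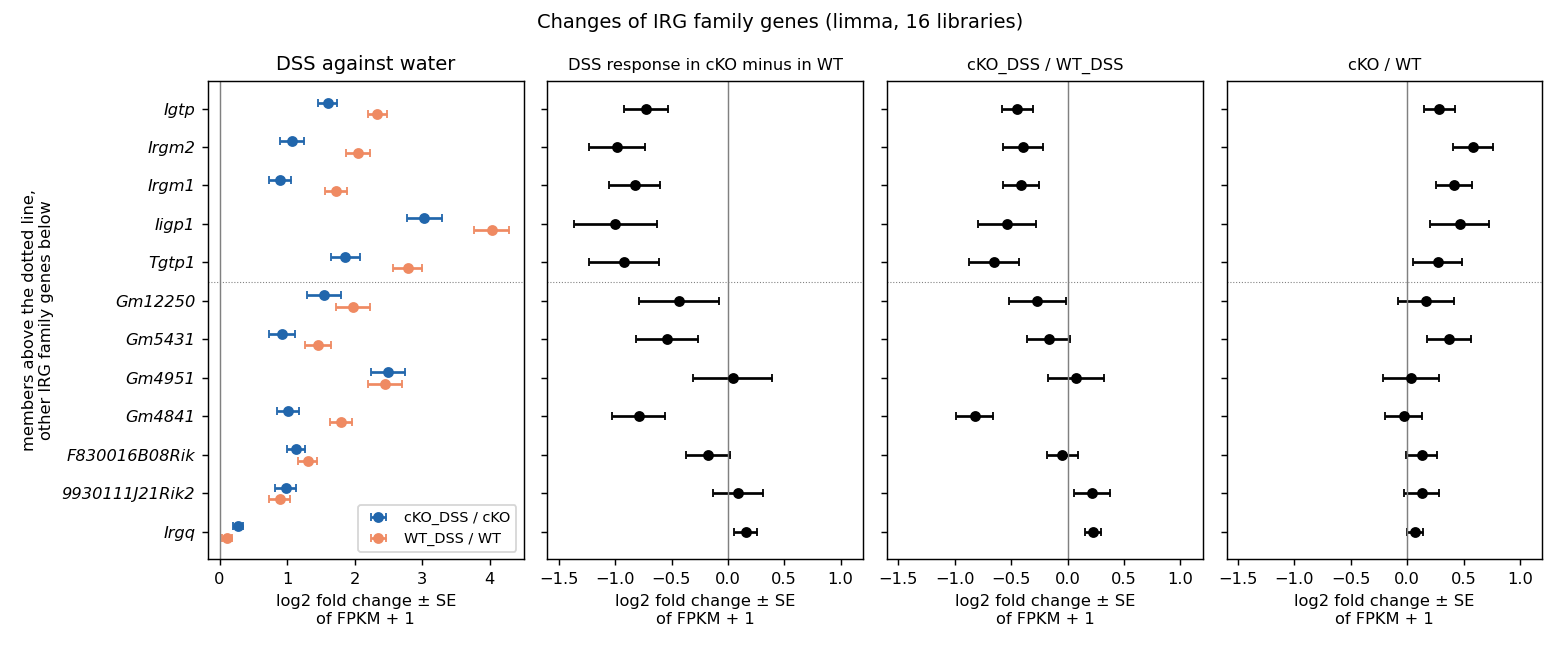
Log2 fold changes of FPKM + 1 with standard errors for the 5 members with reads, above the dotted line, and 7 other IRG family genes below it. Left to right: DSS against water in each genotype, the difference of the DSS responses, cKO_DSS over WT_DSS, and cKO over WT. The members stand left of 0 in the panels of the difference of responses and of cKO_DSS over WT_DSS, and right of it in that of cKO over WT; Gm4951 stands within its error of 0 in each of them.

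Of 12 further IRG family genes in the table, 7 passed the filter. In DSS against water, 7 of 7 were called higher in cKO, where 8.07% of genes were, and 6 of 7 in WT, where 15% were. Of the 7, Gm4841, F830016B08Rik and 9930111J21Rik2 had no water library at 1 FPKM (0.253, 0.457 and 0.409 FPKM at most) and passed the filter through DSS libraries alone, so they had to differ and their calls are no support. Gm12250 (Irgb10), an IRG that attacks bacterial membranes and that the deposited table lists as a processed pseudogene, was as abundant as the regulators. It was at 45.1, 66.5, 47.4 and 40.4 FPKM in cKO_DSS, 61.3, 61.2, 49.3 and 66.0 FPKM in WT_DSS, 12.9, 17.4, 21.6 and 13.7 FPKM in cKO and 21.9, 19.3, 11.8 and 8.04 FPKM in WT. It rose by 1.55 ± 0.25 SE in cKO and 1.98 ± 0.25 SE in WT, and its genotypes overlapped at both treatments (adjusted p = 0.592 after DSS and 0.743 on water). Gm4951, which RefSeq also calls Ifgga2 and which lies near Iigp1 on chromosome 18, rose in both genotypes, by 2.49 ± 0.25 SE in cKO and 2.45 ± 0.25 SE in WT, with a difference of responses of +0.04 ± 0.35 SE (adjusted p = 0.955).

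Its neighbour Gm4841 (Ifgga3 in RefSeq) was the IRG family gene that was called between genotypes. It was at 1.47, 2.07, 0.737 and 0.778 FPKM in cKO_DSS, 2.84, 2.55, 3.02 and 3.18 FPKM in WT_DSS, 0, 0.115, 0.0259 and 0.253 FPKM in cKO and 0.0942, 0.165, 0.0943 and 0.118 FPKM in WT. The DSS groups did not overlap, and cKO_DSS 3 and 4 were the lowest. It was lower in cKO_DSS than in WT_DSS by limma (log2 fold change -0.82 ± 0.16 SE, adjusted p = 0.0173), as 1.67% of genes were. Outside WT_DSS only cKO_DSS 1 and 2 reached 1 FPKM. Gm4841 thus passed the filter of 4 libraries only through WT_DSS, the group where it was high, and its call is no support for a genotype difference. With the GC correction it was still called at -0.72 (adjusted p = 0.0132), and without cKO_DSS 3 and 4 it was not, at -0.50 (adjusted p = 0.187). In other settings the call was lost while the difference stayed as large or nearly so, at -0.71 without cKO_DSS replicate 3 (adjusted p = 0.0605), -0.72 without cKO_DSS replicate 4 (0.0554), -0.87 without WT_DSS replicate 2 (0.0501), -0.87 without WT 4 and WT_DSS 2 (0.0529) and -0.82 in the 8 libraries alone (0.0785). With a pseudocount of 0.1 it was -1.25 (0.119). Irgq, a more distant IRG relative, was at 9.32 ± 0.85 FPKM in cKO_DSS, 7.80 ± 0.26 in WT_DSS, 7.54 ± 0.20 in cKO and 7.15 ± 0.65 in WT, and rose by 0.27 ± 0.07 SE with DSS in cKO. The other 3, Gm5431, F830016B08Rik and 9930111J21Rik2, had DSS changes of +0.89 to +1.46 over both genotypes.

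Guanylate-binding proteins (GBPs), interferon-induced GTPases that act with IRGs at vacuoles, were called higher with DSS in 7 of 7 kept genes in each genotype, against 8.07% of all genes in cKO and 15% in WT, with medians of +1.11 in cKO and +1.54 in WT. Gbp5 and Gbp9 passed the filter through DSS libraries alone (at most 0.592 and 0.611 FPKM on water). Gbp2 stood at 31.6 ± 5.28 FPKM in cKO_DSS, 39.1 ± 3.30 in WT_DSS, 13.8 ± 3.66 in cKO and 9.79 ± 3.26 in WT (SD, n = 4 each). Gbp7 rose by 1.08 ± 0.20 SE in cKO and 1.94 ± 0.20 SE in WT, while Gbp9 had +1.39 ± 0.13 SE in cKO and +1.29 ± 0.13 SE in WT. No GBP was called between genotypes or for the difference of responses by limma, where Gbp7 was at -0.86 ± 0.28 SE (adjusted p = 0.122). The 15 type I interferon targets, such as Ifit2 and Mx2, had 14 called higher with DSS in cKO and 15 in WT, with medians of +1.26 in cKO and +1.78 in WT, and none called in the genotype comparisons. With the Y-linked level as a covariate 1 GBP was called higher with DSS in cKO and 5 in WT, with medians of +0.95 in cKO and +1.48 in WT, and 3 type I targets in cKO and 8 in WT, with medians of +1.27 in cKO and +1.72 in WT. In that setting 1 of the 7 IRG relatives was called higher in cKO and 5 in WT, and 0 transcription factors in cKO and 2 in WT. These counts are to be set beside 94 of all 13255 genes called there in cKO and 193 in WT, higher or lower.

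Upstream of the IRGs, the ligand gene Ifng held 1 read in cKO_DSS, 0 in WT_DSS, 5 in cKO and 1 in WT, over 4 libraries each. The receptor genes Ifngr1 and Ifngr2 and the kinases Jak1 and Jak2 gave 2 calls in all, with Ifngr2 higher with DSS in cKO (+0.35 ± 0.08 SE, adjusted p = 0.00815) and Jak1 higher with DSS in WT (+0.30 ± 0.09 SE, adjusted p = 0.0237). Among type I and III interferon genes, the ligand Ifnl3 held no read in any water library and passed the filter through DSS libraries alone, so its DSS change was not read as a test. It was at 0.464, 0, 1.74 and 0.217 FPKM in cKO_DSS and 1.73, 1.196, 1.43 and 0.828 FPKM in WT_DSS, where the genotypes overlapped. The receptor gene Il10rb was called higher with DSS by limma in cKO (+0.33 ± 0.07 SE, adjusted p = 0.00865) and in WT (+0.29 ± 0.07 SE, adjusted p = 0.0117). Ifnar1 was called higher in WT (+0.28 ± 0.07 SE, adjusted p = 0.0145). Of all genes 8.07% were called higher with DSS in cKO and 15% in WT. Of 9 kept transcription factors 7 rose with DSS in cKO, where 8.07% of all genes did, and 6 in WT, where 15% did, with none lower. Irf1 rose by 0.67 ± 0.10 SE in cKO and 0.54 ± 0.10 SE in WT, and Nlrc5, the activator of MHC class I genes, by 1.11 ± 0.16 SE in cKO and 1.24 ± 0.16 SE in WT. Of 9 feedback inhibitors, Socs3 was higher in cKO_DSS than in WT_DSS (+0.93 ± 0.19 SE, adjusted p = 0.0193), as 2.03% of genes were, though not without WT_DSS replicate 2 (+0.87, adjusted p = 0.0765) or without cKO_DSS 3 and 4 (+0.71, adjusted p = 0.154), while Socs1, the main brake on interferon gamma signalling, rose with DSS in both genotypes, by 0.93 ± 0.15 SE in cKO and 0.76 ± 0.15 SE in WT.

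Downstream, 10 of 15 other interferon gamma targets were called higher with DSS in each genotype, against 8.07% of all genes in cKO and 15% in WT. With the Y-linked covariate 3 were in cKO and 5 in WT, where 94 of all 13255 genes were called in cKO and 193 in WT, higher or lower. Of the 15 targets, Cxcl9 and Ido1 passed the filter through DSS libraries alone. Between genotypes after DSS 2 of the 15 were called lower in cKO_DSS by limma, as 1.67% of genes were. These were the tryptophan-degrading enzyme Ido1 (-0.87 ± 0.16 SE, adjusted p = 0.0132) and the chemokine Cxcl9 (-0.77 ± 0.18 SE, adjusted p = 0.034). Outside WT_DSS, Cxcl9 reached 1 FPKM in fewer than 4 libraries. It thus passed the filter only through WT_DSS, where it was high, and its call is no support for a genotype difference. On water Cd74 was called lower in cKO by limma (-1.63 ± 0.26 SE, adjusted p = 0.0287), as 0.0377% of genes were. Without cKO_DSS 3 and 4 Ido1 (-0.78, adjusted p = 0.0966) and Cxcl9 (-0.48, adjusted p = 0.248) were not called, nor was Cxcl9 without WT_DSS replicate 2 (-0.77, adjusted p = 0.102), nor Cd74 without the 3 water libraries that held no Y-linked read (-1.62, adjusted p = 0.237). The water difference of Cd74 and the members' differences there thus had opposite signs. Of 11 autophagy conjugation genes, whose products direct IRG and GBP proteins to vacuoles, 1 rose with DSS in cKO (Atg12, +0.30 ± 0.09 SE) and 3 in WT (Atg12 +0.38, Map1lc3b +0.48 and Atg5 +0.46). These shares of 11 are to be set beside 8.07% of all genes in cKO and 15% in WT, and 1 of 11 in cKO is near that background. Of 8 ubiquitin and adaptor genes at vacuoles 4 rose in cKO and 5 in WT, and 0 in cKO and 1 in WT with the Y-linked covariate, led by Rnf213 (+1.04 ± 0.24 SE in cKO and +1.47 ± 0.24 SE in WT). None of these 2 lists was called between genotypes.

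Markers of other cells moved with treatment too. Macrophage and monocyte markers summed to 6.94 to 11.2 FPKM in cKO_DSS, 6.63 to 10.05 in WT_DSS, 4.15 to 6.85 in cKO and 3.86 to 5.97 in WT. Of their 3 kept markers 2 were called higher with DSS in each genotype (C1qb among them through DSS libraries alone), and Cd68 was lower in WT. Of all genes 8.07% were called higher with DSS in cKO and 15% in WT, and 13.5% were lower in WT. The 7 fibroblast markers summed to 7.48 to 9.36 FPKM in cKO_DSS, 11.1 to 13.6 in WT_DSS, 3.94 to 5.67 in cKO and 2.97 to 4.48 in WT. These sums thus moved with the members, also between genotypes after DSS. There 1 of 4 kept markers (Sparc) was called lower in cKO_DSS, as 1.67% of all genes were, and 0 of 4 without WT_DSS replicate 2. With DSS 3 of these 4 were called higher in cKO and 4 in WT. Col1a1 and Col3a1, among the 4, passed the filter through DSS libraries alone. T and NK cell markers summed to 25.5 to 35.8 FPKM in cKO_DSS, 21.9 to 29.4 in WT_DSS, 12.8 to 31.7 in cKO and 16.3 to 21 in WT. Of their 7 kept markers 2 were called higher with DSS in cKO (Gzma and Gzmb) and 1 in WT (Gzmb). Jchain, the 1 kept B and plasma cell marker, was called higher with DSS in WT. The 6 B and plasma cell markers summed to at most 2.95 FPKM and the 5 endothelial markers to at most 0.959 FPKM in any library. Of the 6 neutrophil markers 1 passed the filter, Ly6g, which was lower with DSS in WT, while S100a9 had no read in cKO_DSS, cKO and WT. Of the 8 epithelial markers 1 was called higher in cKO_DSS than in WT_DSS by limma (Krt18, +0.70 ± 0.13 SE, adjusted p = 0.0108), as 2.03% of genes were. With DSS 2 of the 8 were called higher in cKO (Krt18 and Epcam) and 1 lower in WT (Krt19). The part of any of these cell types in the IRG levels was not tested.

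Within groups the members also moved together from library to library. After subtracting group means, Pearson's r between members over the 16 libraries ran from 0.15 (Igtp with Tgtp1) to 0.95 (Iigp1 with Irgm2), with a median of 0.70 over 10 pairs. Libraries share depth and base composition, and these values are a description. In cKO_DSS 2, WT_DSS 4, cKO 3 and WT 2 all 5 members lay above their group mean, and in cKO_DSS 4, cKO 1 and WT 4 none did. Over all 16 libraries, without subtraction, the genes (no members) most like the 5 members by mean r were an unnamed locus (0.974), Cmpk2 (0.973), Tnfsf10 (0.971), Ifit2 (0.970) and Gbp7 (0.968), out of 13250. After subtraction they were Nmd3 (0.803), Parp12 (0.801), Rtp4 (0.800), Trim25 (0.798) and Slfn5 (0.795).

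**Figure D5:**
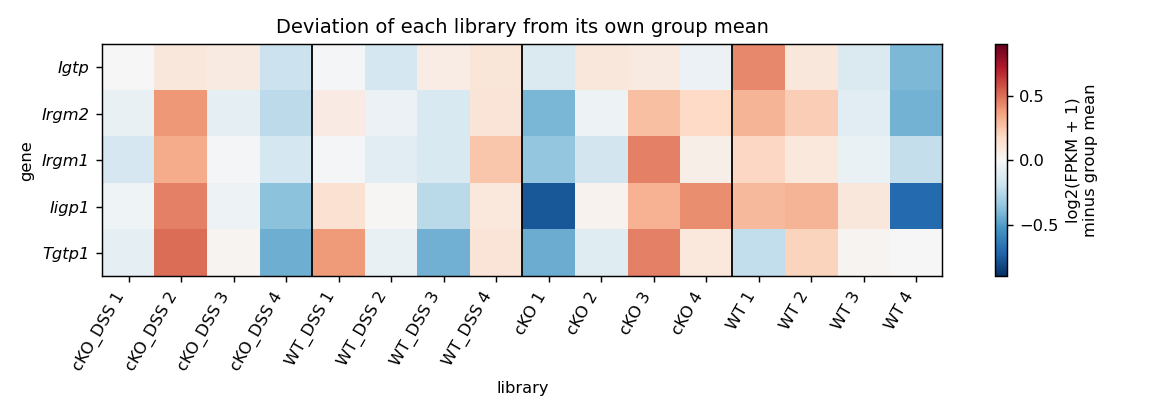
Deviation of each library from the mean of its own group, in log2(FPKM + 1), for the 5 members with reads; black lines part the groups. All 5 members are above the group mean (red) in cKO_DSS 2 and below it (blue) in cKO_DSS 4 and cKO 1, and in WT 4, where Tgtp1 is close to 0.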

How the data were processed

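RNA sequencing of colonic epithelial cells of mice gave 16 libraries, 4 each of cKO_DSS, WT_DSS, cKO and WT, grouped by the labels. The deposited values are FPKM per gene. The tools named in the submitters' processing notes are featureCounts 1.5.0-p3 and DESeq2 1.20.0, with build mm10, and per the labels' protocols the authors removed reads with adapters, undetermined bases or low quality. Not given in the sources used here are the aligner, the annotation release, the strand setting and how reads that fit several genes were treated. The deposited gene length in bases times FPKM gave whole multiples of a step per library (100% of values within 0.05), hence the reads; 4.74 to 15.1% of them were mitochondrial. No 2 libraries of a group agreed within counting noise.

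The 13255 genes that reached 1 FPKM in 4 or more libraries were fitted as log2(FPKM + 1) with limma 3.58.1 in R 4.3.3, with a mean per group and a trend, and p-values were adjusted by the Benjamini-Hochberg method over all of them in each of 5 comparisons. The fit was tested on simulated data. Members, lists and tests were chosen with earlier results of these data known. Named genes were the members, kept IRG relatives, up to 4 genes per list with the smallest p, and the 5 most like genes; Gm12185, C1qb, Xist and Cd68 were added after their values were seen, and 1 listed gene is not reported here. Alternatives were other pseudocounts, filters and scalings, the 8 compared libraries alone, Tgtp1 and Tgtp2 combined, a replicate block, limma voom on recovered reads, covariates, a loess GC correction (span 0.5) by GENCODE M21 transcripts, and leaving out libraries. Leaving out the 3 water libraries with no Y-linked read was chosen after seeing the data, as were the counts of listed genes under it, with the Y-linked covariate, with the GC correction and without the libraries named beside them.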

Additional observations from a re-analysis of the deposited data

Results flagged for a closer look

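Each group of 4 libraries was checked for a library far from the other 3, in 52 groups of gene and condition, with 4 found. For continuous values chance alone gives about 1 in 20. That rate does not apply to Tgtp2, where any library that alone holds reads is flagged. Tgtp2 stood out in cKO_DSS 4 at 0.0644 FPKM, in cKO 3 at 0.0751 FPKM and in WT 3 at 0.0455 FPKM, where the other libraries of the group held no read; the values rest on 3, 3 and 2 reads. Irgq was at 7.84 FPKM in cKO 1, against 7.42 to 7.46 FPKM in the other cKO libraries.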

How the results depend on the processing

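Under 31 alternatives (30 for the difference of responses) no member changed direction in any comparison. The number of members called after DSS, 0, was 1 with limma voom on recovered reads, and 0 to 1 when single libraries were left out (1 without WT replicate 1, WT replicate 4 or cKO_DSS replicate 2). The number called for the difference of responses, 0, was 0 to 4 (4 without cKO_DSS replicate 2), and on water it was 0 under each alternative. With the replicate block it was 0 in all 3, and the median DSS change stayed at +1.60 in cKO and +2.33 in WT. Of 24 same-numbered pairs of libraries 6 correlated above 0.1 (-0.20 to 0.30), and differently numbered pairs ran from -0.25 to 0.28. These values do not settle whether the numbers pair the libraries. The range of the median DSS change over libraries left out singly was 1.56 to 1.67 in cKO and 2.20 to 2.48 in WT. Gm4841, at -0.03 between genotypes on water, was at 0.0424 with quantile normalization, and at -0.0955 to 0.0131 with single libraries left out, above 0 without cKO replicate 1 or cKO replicate 3. The count of all genes called for the difference of responses, 20, was 46 with a filter at 5 FPKM, 42 with limma voom, 36 with a median shift, 9 with the GC correction, 4 with no filter or with the GC correction and the replicate block, 7 with the Y-linked covariate, 11 with quantile normalization, 13 with the replicate block, and 0 to 1240 with libraries left out; these causes were not tested. Tgtp1 rests on 6 to 51 reads per library on water, and Tgtp2 could not be compared.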

Other observations

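Irf1 and Irf8, which code for interferon-linked transcription factors, ran against the members within groups. After subtracting group means, their mean Pearson's r with the 5 members over 16 libraries was -0.609 for Irf1 and -0.492 for Irf8, ranks 13060 and 12249 of 13250 genes. For Irf9 it was 0.714. Over all 16 libraries without subtraction the mean r was 0.778 for Irf1, 0.255 for Irf8 and 0.884 for Irf9. Irf1 and Irf8 were singled out after their values were seen, and these are descriptions with no test.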
